A study of Mus musculus with 2 samples.

Results

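The genes described are 8 regulators of cell cycle arrest, taken by name from the 31053 genes of the count matrix. Cdkn1a, Cdkn1b and Cdkn1c encode the CIP/KIP inhibitors of cyclin-dependent kinases (CDKs), Cdkn2c and Cdkn2d encode members of the INK4 inhibitor family, and Mdm2, Ccng1 and Trp53inp1 are targets of the transcription factor p53. The cells were corneal epithelium from mice of the genotype CycB1-GFP, whose reporter labels cells in cycle through Cyclin B1; they were sorted as GFP-positive and profiled by droplet single-cell RNA-seq in 1 group of 2 libraries. The labels give no age, sex or strain, and do not say whether the libraries came from separate animals. The p-values below therefore concern sums from these libraries only. Their estimate of spread is largely pooled over genes, so they do not measure how far a member itself differed between the libraries. GFP-negative cells were not analysed here, and cells with no captured RNA of the proliferation genes Mki67 and Top2a were found within the GFP gate.

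Cyclin-dependent kinases drive a cell from one phase of its cycle to the next, and their inhibitors hold it back. CIP/KIP proteins bind cyclin-CDK complexes of several phases, while INK4 proteins bind CDK4 and CDK6 and keep the retinoblastoma protein active in G1. p53 is stabilised by DNA damage and other stress, induces Cdkn1a as its best known arrest gene, and induces Mdm2, whose product marks p53 for degradation. The corneal epithelium renews itself from basal and limbal cells that divide before their daughters stop cycling and move up.

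Promoter windows were examined because 4 of the 8 genes are p53 targets, Cdkn1a included. RefSeq windows (GRCm38.p6) from 250 bases before to 50 after a transcript start were found for 6 of 8 genes, in 8 windows, and none were used for Cdkn1c or Trp53inp1. An exact match to the p53 half-site on either strand occurred in 8.36% of 32851 such windows. It occurred in windows of Cdkn1a, Mdm2, Ccng1 and Cdkn2d, and in none for Cdkn1b or Cdkn2c. The stretches upstream of both the RefSeq and the GENCODE start are shown 5′ to 3′ on the gene's strand, with the half-sites in capitals.
Cdkn1a, plus strand, chr17:29090729-29090975: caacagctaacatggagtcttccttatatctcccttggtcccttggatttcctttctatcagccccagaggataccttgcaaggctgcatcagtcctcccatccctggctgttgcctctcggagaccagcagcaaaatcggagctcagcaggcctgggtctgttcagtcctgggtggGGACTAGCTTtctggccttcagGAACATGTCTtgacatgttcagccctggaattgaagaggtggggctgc
Mdm2, minus strand, chr10:117710759-117711008: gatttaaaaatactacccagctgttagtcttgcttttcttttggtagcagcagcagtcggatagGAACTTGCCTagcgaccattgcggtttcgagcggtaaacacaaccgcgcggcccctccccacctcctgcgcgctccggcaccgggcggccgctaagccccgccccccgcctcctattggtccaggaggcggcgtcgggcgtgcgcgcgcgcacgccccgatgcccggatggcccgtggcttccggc
Ccng1, minus strand, chr11:40755312-40755536: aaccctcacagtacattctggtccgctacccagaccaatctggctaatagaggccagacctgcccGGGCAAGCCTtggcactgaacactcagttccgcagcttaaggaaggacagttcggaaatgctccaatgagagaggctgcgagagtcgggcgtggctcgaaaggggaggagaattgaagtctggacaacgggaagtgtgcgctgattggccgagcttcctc
Cdkn1a held 2 half-sites in its upstream window, starting at positions -73 and -51 from the RefSeq start, and 0 in the window of its second start (chr17:29093519-29093818). In Mdm2 the half-site started at position -186, and in Ccng1 at position -185. The Cdkn2d half-site, GGGCTTGCCT at position -102, lies within the GENCODE gene (chr9:21288410-21291407) and overlaps a GGGCGG match. Other motifs searched on both strands were CCAAT (in 37.4% of all windows), GGGCGG (35.7%), TTTNNCGC (5.17%) and TTTGAA (17.9%). CCAAT occurred in windows of Ccng1, Cdkn1b, Cdkn2c, Cdkn2d and Mdm2. TTTNNCGC occurred in the Mdm2 window alone among the 8, and TTTGAA in none of them. GGGCGG occurred in windows of Cdkn1a (that of the second start), Cdkn1b, Cdkn2c, Cdkn2d and Mdm2, and not in that of Ccng1. These matches describe letters, not bound sites.

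Library 1 held 3187 kept cells with a median of 5571 UMIs (captured RNA molecules) per cell, and library 2 held 3001 with 5886; 5 barcode sequences occurred in both. A kept cell had 500 genes or more and a mitochondrial share of UMIs below 20%. The 7 corneal epithelial markers found in the matrix summed to 24746 and 30242 CPM (a gene's UMIs scaled to a total of 1000000) in libraries 1 and 2, with none at 0. Immune markers summed to 20.1 and 67.9, and the keratocyte genes Kera, Col1a1, Col1a2 and Col3a1 were at 0 in both. Library 1 had the higher immediate early sum (7731 against 3524 over 15 genes) and library 2 the higher interferon sum (473 against 142 over 8 genes).

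Among the CIP/KIP genes, Cdkn1a (p21; chr17:29090976-29100727) differed most between libraries. Its level was 91.9 CPM in library 1 (exact Poisson 95% interval 87.6 to 96.4, which like all such intervals here covers counting error only) and 65.2 in library 2 (61.5 to 69.1). At most 18 Cdkn1a UMIs were found in a cell of library 1 and 11 in library 2, the highest single-cell counts of any of the 8 genes. Cdkn1b (p27; chr6:134920401-134925513) stood at 152 (147 to 158) and 141 (136 to 147) CPM. Cdkn1c (p57, an imprinted gene; chr7:143458339-143461050) stood at 11.1 (9.62 to 12.7) and 12.1 (10.5 to 13.8).

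Of the INK4 genes, Cdkn2c (p18; chr4:109660876-109667189) was lower in library 1, at 58.6 CPM (55.2 to 62.2), than in library 2, at 80.5 (76.4 to 84.8). Cdkn2d (p19; chr9:21288410-21291407) was also lower in library 1, at 109 (104 to 114) against 126 (121 to 132). Among the p53 targets, Mdm2 (chr10:117688875-117710758) stood at 37.9 (35.1 to 40.8) and 30.1 (27.6 to 32.7), higher in library 1 as Cdkn1a was. Ccng1, which encodes cyclin G1 (chr11:40748552-40755311), stood at 37.4 (34.7 to 40.3) and 36.1 (33.4 to 39.0). Trp53inp1, a nuclear stress response gene (chr4:11156431-11174379), stood at 2.88 (2.16 to 3.75) and 2.92 (2.18 to 3.83). With 1 library on each side, these library differences have no test.

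The first comparison asked how the 8 genes follow the RNA of Mki67 and Top2a, called proliferation RNA here. Cells with 5 or more UMIs of Mki67 and Top2a together, which encode Ki-67 and a topoisomerase of dividing cells, were set against cells with 0. A cell with 0 may hold uncaptured RNA of these genes, and cells with 0 still held other cell cycle RNA, as given below. Both INK4 genes were higher in cells with proliferation RNA, by over 2 on the log2 scale, while Cdkn1a was lower and the other testable members did not pass the threshold. Cells with 0 were shallower, with median UMIs of 3176 and 3156 in libraries 1 and 2 against 6149 and 6360, so equal numbers were drawn at matched total UMIs, 193 cells per class in library 1 and 229 in library 2. The UMI sums of each library in each class entered edgeR's quasi-likelihood test, with library as a block. Of 7459 genes tested 19.2% passed an adjusted p of 0.05 (9.09% higher and 10.1% lower), and 3 of the 6 members tested did, 2 higher and 1 lower. Cdkn1c and Trp53inp1 had too few UMIs to be tested.

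Cdkn2c stood at 17.2 (8.90 to 30.1) and 20.1 (11.7 to 32.2) CPM in matched cells with 0 proliferation UMIs of libraries 1 and 2. In cells with 5 or more it stood at 74.2 (55.4 to 97.3) and 118 (96.4 to 144), above both values of the other class. Its log2 fold change was 2.22 (SE 0.29, edgeR adjusted p = 2.24e-12), with 1.96 from library 1 alone and 2.42 from library 2 alone. Cdkn2d went from 35.9 and 19.0 with 0 (25 and 16 UMIs) to 117 (93.0 to 145) and 123 (101 to 149) with 5 or more. This was a log2 fold change of 2.02 (SE 0.27, edgeR adjusted p = 1.82e-12), higher in both libraries. Cdkn3, a phosphatase of CDKs that was listed beside the inhibitors, was higher too (log2 2.57), and Cdkn2b, the INK4 gene for p15, was lower (log2 -2.00).

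Cdkn1a ran the other way, and in this draw of matched cells unequally in the libraries. In library 1 its matched levels were 141 (114 to 172) with 0 and 123 (98.1 to 152) with 5 or more, whose counting intervals overlap. In library 2 they were 171 (144 to 201) and 35.2 (23.7 to 50.2), which do not. The joint log2 fold change was -1.26 (SE 0.25, edgeR adjusted p = 4.73e-05), and the libraries alone gave -0.34 and -2.40. This SE and p-value rest largely on a spread pooled over genes and do not measure that gap between the libraries. The call was lost without the library block (adjusted p = 0.416) and with DESeq2 (0.876), against adjusted p-values from 5.97e-10 to 0.0294 under the 10 other alternatives. Over all cells, without the depth match, Cdkn1a stood at 141 with 0, 104 with 1 to 4 and 87.5 with 5 or more proliferation UMIs in library 1. In library 2 the same classes held 170, 71.4 and 58.6, so the class with 0 was highest in both.

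**Figure D1:**
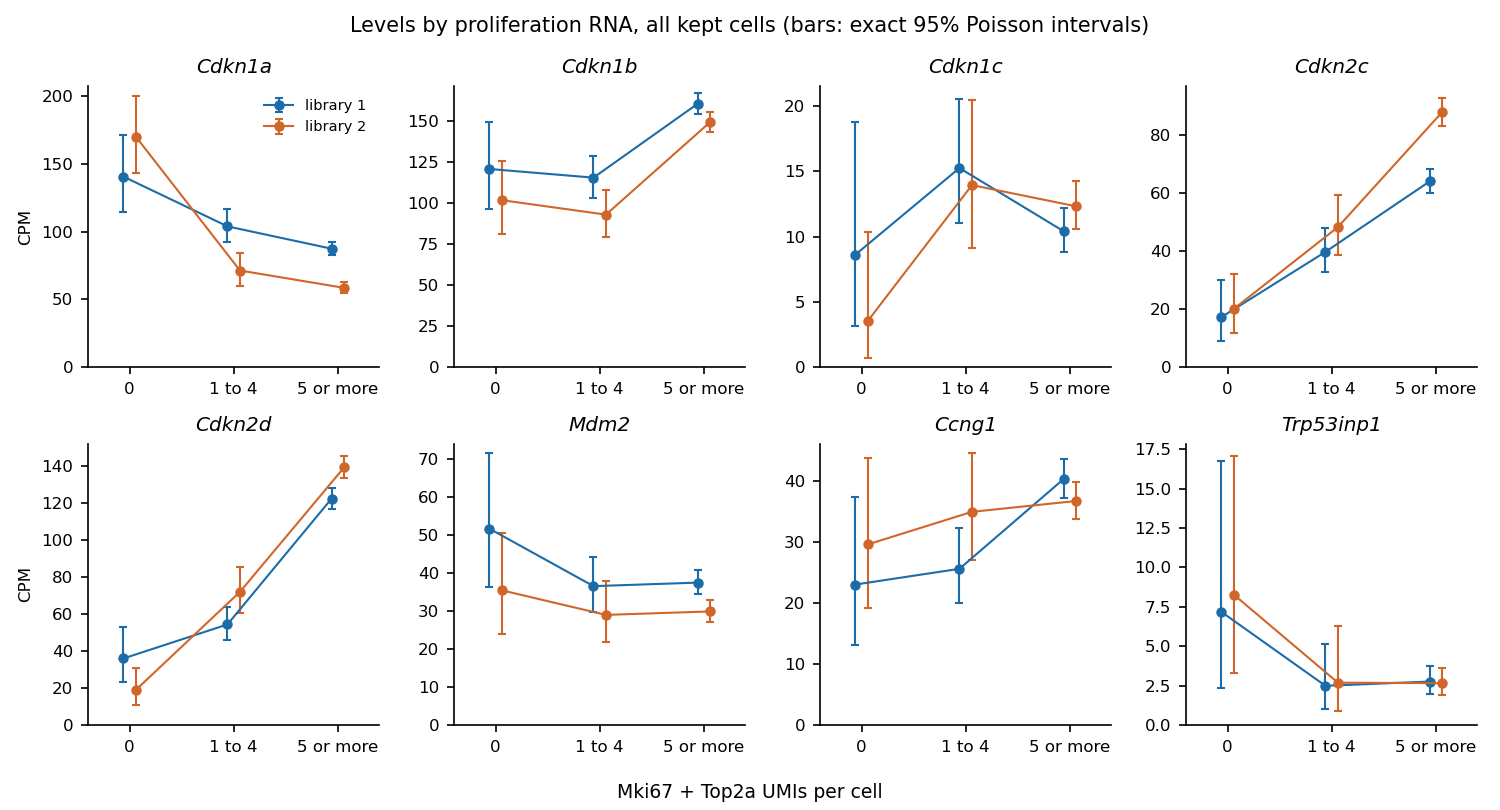
CPM of each member (vertical axis, starting at 0) in all kept cells with 0, 1 to 4 and 5 or more Mki67 and Top2a UMIs (horizontal axis), library 1 in blue and library 2 in orange, with exact 95% Poisson intervals. In library 1 Cdkn2d stands at 35.9, 54.3 and 122 and Cdkn2c at 17.2, 39.7 and 64.0 across the classes, while Cdkn1a stands at 141, 104 and 87.5.

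Cdkn1b had matched levels of 121 and 102 CPM with 0, and 207 and 137 with 5 or more. Its log2 fold change of 0.46 (95% interval 0.06 to 0.85) missed the threshold (edgeR adjusted p = 0.100). A second random draw of the matched cells gave 0.64 with an adjusted p of 0.00797, within a range of 0.00281 to 1.00 over 12 alternatives, so the call depends on which cells were drawn. Among the p53 targets, Mdm2 differed by -0.37 (-0.96 to 0.22) and Ccng1 by 0.53 (-0.11 to 1.17), and neither passed. Of 20 other p53 targets tested, 0 were higher and 2 were lower: Sfn (log2 -1.03), the epithelial 14-3-3 protein sigma, and Perp (-0.95), a desmosome protein. Their median was -0.13, beside -0.01 over all genes tested. Of 14 tested genes of the p53 family and its regulators, 4 were higher, Trp53 among them, and 0 were lower (median 0.56). The CDK, cyclin, RB and E2F list had 9 of 18 tested genes higher and 0 lower, led by Ccna2 (log2 2.95), Cdk1 (2.76) and E2f5 (2.16).

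Other RNAs differed between the same cells. All 21 G2/M genes were higher with 5 or more (median log2 3.09), and their sum went from 748 and 541 CPM to 5952 and 5787. Of 19 S phase genes tested 8 were higher and 1 lower (median 0.64), and the sum went from 1041 and 818 CPM to 1672 and 1760. The classes thus differed most in G2/M RNA, and the INK4 result here is not separate from that along the G2/M bins below. All 7 conjunctival markers were lower in cells with proliferation RNA (Muc4 by log2 -5.52, Krt13 by -4.41), and their summed level went from 6363 and 7557 CPM with 0 to 966 and 843 with 5 or more. Of 7 corneal markers tested 4 were lower, and of 7 interferon genes tested 3 were lower, led by Ifit1 (log2 -1.86). Their part in the Cdkn1a and INK4 results was not tested. Without edgeR's TMM scaling the median of all genes moved up by 0.15 (log2) and 62.7% rather than 47.4% of called genes were higher. Cdkn2c, Cdkn2d and Cdkn1a kept their calls under that scaling.

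The proliferation comparison was repeated inside the ends of the Krt12 share, the part of Krt12 and Krt15 UMIs in a cell that is Krt12. Krt12 is the keratin of corneal epithelium proper and Krt15 is known from limbal and basal cells. Cdkn2c, Cdkn2d and Cdkn1a passed in both classes, among 6.87% of 6521 genes called under 0.4 and 13.7% above 0.8. Cdkn1a stood at 158 and 152 with 0 and at 59.3 and 44.3 with 5 or more in cells with a share under 0.4 (log2 -1.81, SE 0.37, edgeR adjusted p = 0.00093). Above 0.8 it stood at 142 and 196 with 0, and at 80.4 and 52.6 with 5 or more (log2 -1.45, SE 0.26, adjusted p = 0.00012 in edgeR). In both classes the levels with 5 or more lay below both levels with 0. In these separate draws library 1 alone gave -1.53 for Cdkn1a under 0.4 and -0.93 above 0.8. Library 2 alone gave -1.95 and -2.04, so the size of the library 1 difference varied with the cells drawn. The call above 0.8 was lost after thinning cells to 1900 UMIs (adjusted p = 0.0873, in a range of 1.33e-06 to 0.0873 over 9 alternatives). Marker RNA still differed inside both keratin classes. Of 7 conjunctival markers, 4 were lower with 5 or more under 0.4 and 3 above 0.8, with 0 higher. Above 0.8 their sum went from 5943 and 5521 CPM with 0 to 1150 and 381 with 5 or more. Of 6 interferon genes tested, 2 were lower under 0.4 and 5 above 0.8, with 0 higher. Their part in these results was not tested.

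Cdkn2c was at 70.3 and 22.9 CPM with 0 proliferation UMIs under 0.4, from 8 UMIs in each library, and at 6.08 and 11.1 above 0.8, from 3 and 5 UMIs. With 5 or more it was at 110 and 108 under 0.4, and at 76.4 and 67.9 above 0.8. Its log2 fold changes were 1.46 (SE 0.42, edgeR adjusted p = 0.0259) and 2.91 (SE 0.45, adjusted p = 1.45e-05). Under 0.4 library 1 alone gave 0.52, with overlapping counting intervals, and library 2 alone 2.05. Above 0.8 they gave 3.45 and 2.43. Cdkn2d gave 2.75 (SE 0.50) under 0.4 and 2.42 (SE 0.34) above 0.8. Under 0.4 this rested on 3 and 5 Cdkn2d UMIs with 0, against 8 and 58 with 5 or more. Libraries 1 and 2 alone gave 1.23 and 3.28 there, and 1.97 and 3.11 above 0.8. Cdkn1b passed under 0.4, where it stood at 61.5 and 77.4 with 0 and at 161 and 185 with 5 or more (log2 1.12, SE 0.32, edgeR adjusted p = 0.0227), and not above 0.8 (log2 0.15, SE 0.23). Under 0.4 the Cdkn1b call was lost at a mitochondrial limit of 10%, without the library block and with DESeq2 (adjusted p from 0.00741 to 0.256 over 9 alternatives). The Cdkn2c call there was lost in these settings too, after thinning, and without cells with an immune UMI (0.0102 to 0.537).

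Whether the proliferation difference itself depended on the Krt12 share was tested as an interaction. None of the 6 members passed in edgeR, with 0.0153% of 6521 genes called, so no member was shown to respond differently in the 2 keratin classes. At an unadjusted p under 0.05 there were 2 members, Cdkn1b (interaction -0.97, 95% interval -1.77 to -0.16) and Cdkn2c (1.45, 0.06 to 2.85). Libraries 1 and 2 alone gave -1.01 and -1.04 for Cdkn1b, and 2.93 and 0.39 for Cdkn2c. The smallest class held 30 cells in library 1, and DESeq2 called 1 gene of 14136.

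**Figure D2:**
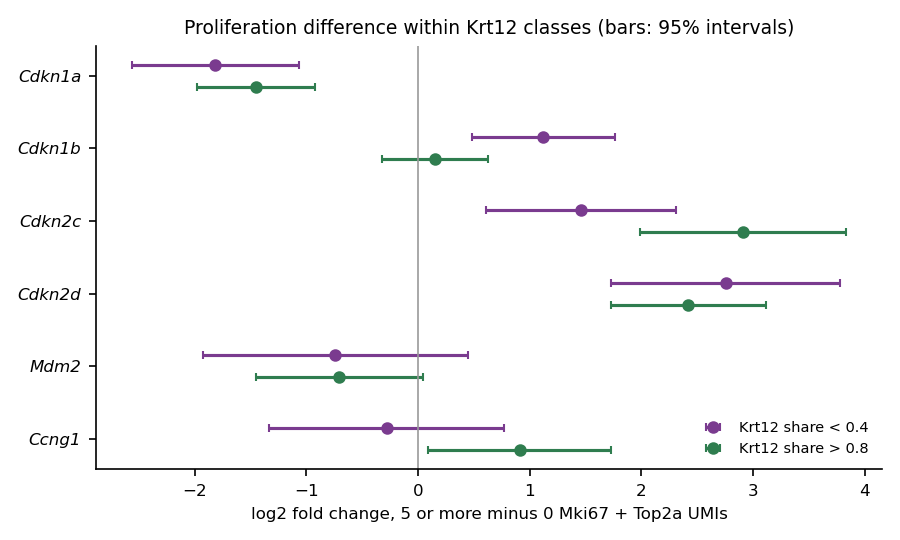
Log2 fold change from 0 to 5 or more Mki67 and Top2a UMIs (horizontal axis, with 95% intervals) for the 6 members tested, in cells with a Krt12 share under 0.4 (purple) and above 0.8 (green). Cdkn2c and Cdkn2d lie right of 0 and Cdkn1a left of 0 in both, and Cdkn1b lies at 1.12 under 0.4 and at 0.15 above 0.8.

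The next comparison followed the 8 genes from S phase towards mitosis. Cells with at least 10 UMIs over lists of 20 S and 21 G2/M genes were ordered by the G2/M part of those UMIs and divided into 4 equal bins within each library, without using the members. Cdkn1b, Cdkn2c and Cdkn2d were higher in the last bin, richest in G2/M RNA, than in the first bin, richest in S RNA, and Cdkn1a was lower. This was 4 of 7 members tested, beside 24.3% of 10439 genes (10.7% higher and 13.6% lower), in 597 and 487 depth-matched cells per bin in libraries 1 and 2. Trp53inp1 was not tested.

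Cdkn1b climbed from one bin to the next in each library. In library 1 it stood at 94.8, 129, 169 and 221 CPM from the first to the last bin, and in library 2 at 93.5, 122, 160 and 200. In the matched cells it went from 99.3 (89.3 to 110) and 91.9 (81.3 to 104) to 217 (202 to 233) and 210 (194 to 227), a log2 fold change of 1.06 (SE 0.11, edgeR adjusted p = 4.32e-07). The protein p27 is known as an inhibitor of cyclin E and CDK2 at the entry into S phase, and these values concern its RNA alone.

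Cdkn2d was lowest in the first bin and highest in the third. It stood at 51.0, 128, 141 and 123 CPM in library 1, and at 76.1, 144, 165 and 140 in library 2. Between the last and the first bin the log2 fold change was 0.85 (SE 0.12, edgeR adjusted p = 3.66e-05). Cdkn2c stood at 37.2, 59.5, 64.6 and 81.7 in library 1 and at 56.1, 80.7, 97.5 and 99.7 in library 2, with a log2 fold change of 0.92 (SE 0.13, edgeR adjusted p = 3.42e-05). The last bin was the highest for Cdkn2c in both libraries, although the third and the last lay within each other's intervals in library 2.

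Cdkn1a stood at 91.4, 105, 81.5 and 73.4 CPM over the bins of library 1, and at 70.0, 67.2, 60.6 and 35.8 in library 2. Its log2 fold change was -0.78 (SE 0.21, edgeR adjusted p = 0.0331), with -0.37 from library 1 alone and -1.37 from library 2 alone. It missed the threshold in cells with a Krt12 share above 0.8 (adjusted p = 0.104), without TMM (0.052), without the library block (0.455) and with DESeq2 (0.0677), in a range of 1.13e-07 to 0.455 over 11 alternatives. The other members tested were not called: Mdm2 differed by 0.01 (95% interval -0.37 to 0.39), Ccng1 by -0.07 (-0.40 to 0.26) and Cdkn1c by -0.23 (-0.71 to 0.25).

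**Figure D3:**
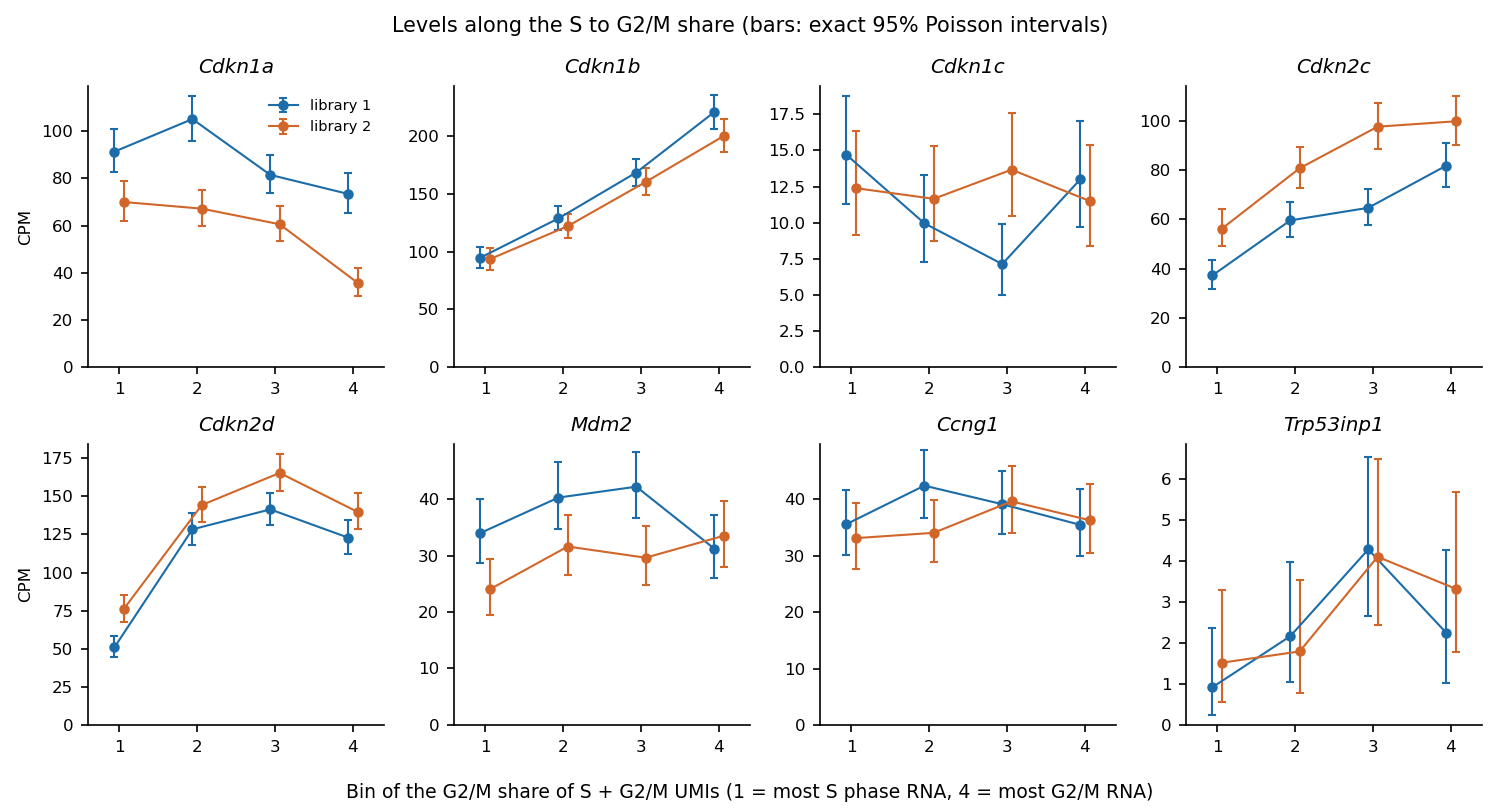
CPM of each member (vertical axis, starting at 0) in the 4 bins of cells ordered from most S phase RNA (1) to most G2/M RNA (4), library 1 in blue and library 2 in orange, with exact 95% Poisson intervals. Cdkn1b climbs from 94.8 to 221 in library 1 and from 93.5 to 200 in library 2, and Cdkn2d stands lowest in bin 1 in both.

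Gene lists around the members were counted over the same bins. Of 3 other CDK inhibitor genes tested, 2 were higher in the last bin, Cdkn2b and Cdkn3, and 0 lower. Cdkn2b thus differed in direction from the proliferation comparison, where it was lower. Of 8 growth arrest genes 5 were higher in the last bin and 0 lower, among them Ccng2 (log2 1.11), which encodes cyclin G2, Pdcd4 (0.86) and Tob1 (0.72). In the proliferation comparison 1 of the 8 was higher, Gas1, and 1 lower, Pdcd4. Between the ends of the Krt12 share 3 were higher above 0.8 and 2 lower. Of 32 other p53 targets tested 1 was higher, Ercc5 (0.67), and 8 were lower, led by Pidd1 (-2.87), Polk (-1.35) and Ddb2 (-0.91); their median was -0.16, beside 0.01 over all genes. Of 14 tested genes of the p53 family and its regulators, Mdm4 and Trp63 were higher, and Atm, Chek1 and Trp53 (-0.83) were lower. Skp2, whose product targets p27 for degradation, was lower (-2.78), while its cofactor Cks1b (0.91) was higher, as was Cks2 (2.06). Of the CDK, cyclin, RB and E2F list 3 of 21 genes were higher, Ccna2 (1.33), Cdk1 (1.24) and E2f5 (0.93), and 16 were lower, led by Ccne2 (-7.90), Ccne1 (-5.35) and E2f1 (-5.25), with a median of -0.92.

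Other RNAs differed between the same bins. Of 13 immediate early genes 9 were lower in the last bin and 0 higher (Fosl1 by log2 -1.33, Fosb by -0.75), and Vim, from the keratocyte list, was higher (2.54). Of 7 conjunctival markers 4 were higher (Krt8 by 2.03, Krt19 by 1.75) and 0 lower, although their sum went from 2091 to 1489 CPM in library 1 and from 1073 to 1629 in library 2. The part of these in the members' results was not tested. The 3 immune markers tested were higher too, with summed immune levels of 1.37 and 12.5 CPM in the first bin and 40.7 and 65.1 in the last. Leaving out every cell with an immune UMI kept the 4 calls. Without TMM 59.6% rather than 43.9% of called genes were higher in the last bin.

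Along the Krt12 share, Cdkn1a and Ccng1 were higher in cells above 0.8 than in cells under 0.4. The low class held more conjunctival as well as some limbal marker RNA: 5 of 7 conjunctival markers were lower above 0.8 and 0 higher (Krt4 by log2 -5.91, Krt19 by -4.41, Krt8 by -3.66), and their sum was 2374 and 3292 CPM under 0.4 against 1815 and 890 above 0.8 in libraries 1 and 2. Of 8 limbal markers tested, Gpha2 (-4.00) and Cd63 (-4.26) were lower above 0.8 while the metallothioneins Mt2 (0.37) and Mt1 (0.33) were higher, and 5 of 6 corneal markers were higher. The class under 0.4 held 663 and 959 cells in libraries 1 and 2, the class of 0.4 to 0.8 held 161 and 164, and the class above 0.8 held 2304 and 1821. Krt12 and Krt15 chose the classes and were not tested. Of 11138 genes 32.5% passed between the ends in edgeR (15.6% higher above 0.8), and 2 of 8 members did, both higher, a share near this background.

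Cdkn1a stood at 72.3 (63.8 to 81.7) and 49.3 (43.3 to 55.8) CPM under 0.4 in libraries 1 and 2, and at 96.5 (91.4 to 102) and 74.6 (69.7 to 79.7) above 0.8. Within each library the intervals did not overlap, although library 1 under 0.4 was about as high as library 2 above 0.8. The log2 fold change was 0.53 (SE 0.13, edgeR adjusted p = 0.00225). Between the ends the class of 0.4 to 0.8 held 101 (83.4 to 121) in library 1 and 44.3 (32.9 to 58.4) in library 2, near the upper class in the former and near the lower in the latter. Ccng1 stood at 27.4 (22.3 to 33.4) and 31.4 (26.7 to 36.7) under 0.4, and at 39.7 (36.5 to 43.2) and 38.5 (35.0 to 42.3) above 0.8, a log2 fold change of 0.43 (SE 0.14, edgeR adjusted p = 0.0172).

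Both calls were lost without the library block (adjusted p = 0.484 for Cdkn1a and 0.133 for Ccng1), with DESeq2 (0.0896 and 0.335), and when the 3 classes were cut to 153 and 164 cells of equal depth. In that smallest setting Cdkn1a differed by 0.01 (adjusted p = 0.981) and Ccng1 by 0.52 (0.161). After thinning to 1900 UMIs per cell the Ccng1 call was lost (0.52, adjusted p = 0.0726) and Cdkn1a differed by 0.86 (0.000137). With depth matched over the end classes alone, 663 and 800 cells per class, the differences were 0.46 (adjusted p = 0.0113) and 0.51 (0.0231). Over 12 alternatives the adjusted p ran from 1.35e-05 to 0.981 for Cdkn1a and from 0.00802 to 0.335 for Ccng1.

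**Figure D4:**
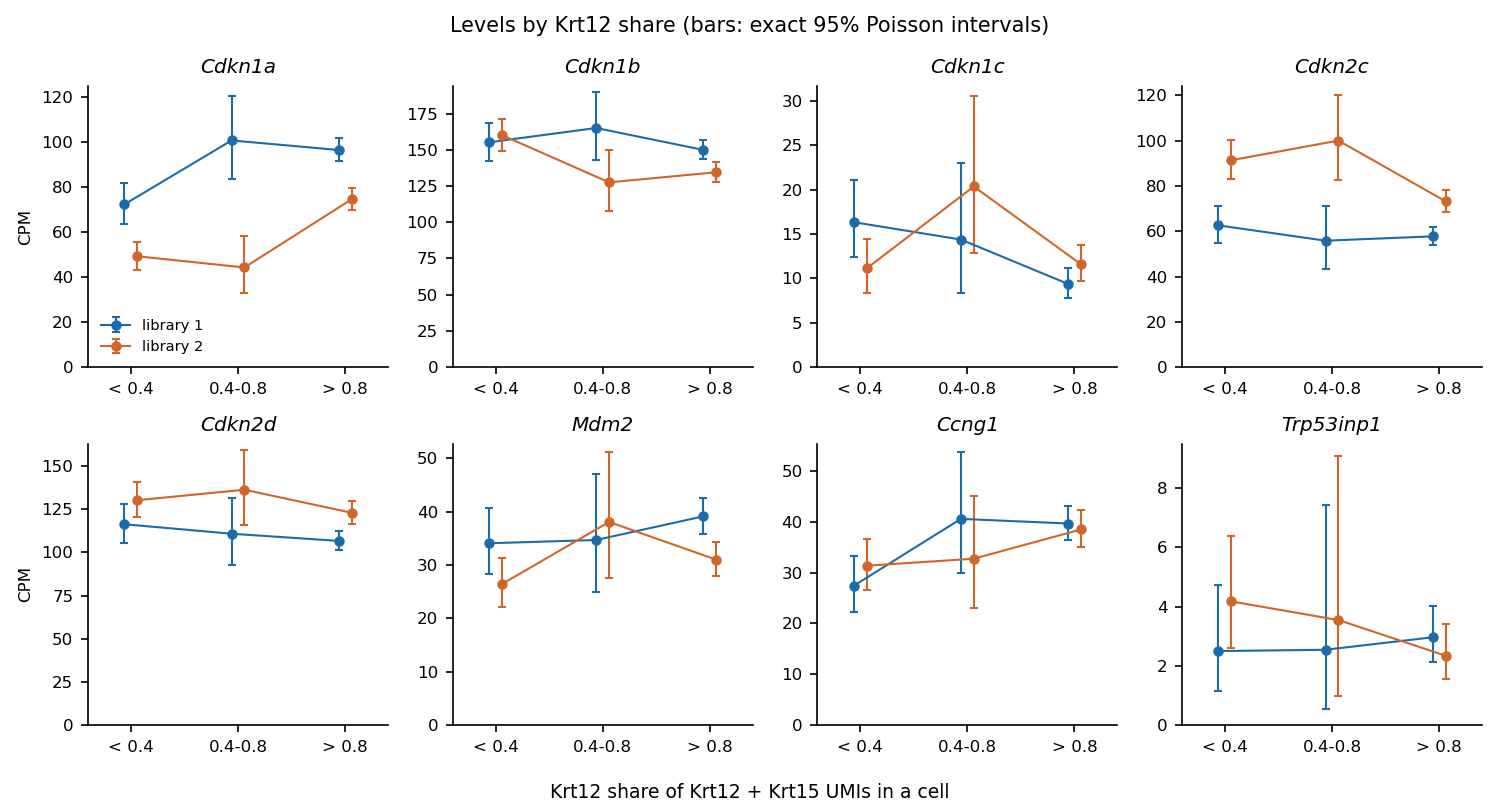
CPM of each member (vertical axis, starting at 0) in cells with a Krt12 share under 0.4, of 0.4 to 0.8 and above 0.8, library 1 in blue and library 2 in orange, with exact 95% Poisson intervals. Cdkn1a stands at 72.3 and 49.3 in the lowest class and at 96.5 and 74.6 in the highest, and the intervals of Cdkn1c and Trp53inp1 are wide at all classes.

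The other members gave no call along the Krt12 share. Cdkn1b differed by -0.13 (95% interval -0.32 to 0.06), Cdkn2c by -0.19 (-0.43 to 0.04) and Cdkn2d by -0.08 (-0.27 to 0.11). Mdm2 differed by 0.24 (-0.04 to 0.53), with 0.24 from each library alone, Cdkn1c by -0.34 (-0.79 to 0.12) and Trp53inp1 by -0.33 (-1.17 to 0.51). Against the class of 0.4 to 0.8, 0 of 8 members were called from below (5.56% of genes in edgeR) or from above (7.06%). At an unadjusted p under 0.05 the only member was Cdkn1c, with -0.70 above 0.8 against 0.4 to 0.8.

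Of 34 other p53 targets tested between the ends, 6 were higher above 0.8, led by Slc19a2 (log2 1.91), Plk2 (1.56) and Plk3 (1.26), and 4 were lower, led by Fas (-1.52), Bbc3 (-1.42) and Sesn1 (-0.51). Their median was 0.08, beside 0.01 over all genes. Of 3 other CDK inhibitor genes tested, 1 was higher above 0.8, Cdkn2a, and 0 were lower. Trp63, whose product maintains stratified epithelia, was higher (0.29), and Trp53 was lower (-0.27). Beside these, 7 of 13 immediate early genes tested were higher above 0.8, led by Fos (1.72), and so were 6 of 8 interferon genes and 3 of 7 heat shock genes. The classes also differed in cell cycle RNA: 6 of 20 S phase genes were higher above 0.8 and 0 lower (Mcm2 by 0.69; median 0.26), and 6 of 21 G2/M genes were lower and 0 higher (Cdc20 by -0.78; median -0.22). Vim, from the keratocyte list, was lower (-4.23). The summed immediate early level was 4900 and 2162 CPM under 0.4 and 8649 and 4139 above 0.8. Immune markers summed to 5.82 and 75.1 under 0.4 and to 0.87 and 2.77 above 0.8. The part of these RNAs, and of the conjunctival markers, in the Cdkn1a and Ccng1 results was not tested. Among cells with 5 or more proliferation UMIs alone, the differences were 0.64 for Cdkn1a (edgeR adjusted p = 0.000876) and 0.51 for Ccng1 (0.00802).

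A further comparison set cells apart by their own Cdkn1a count. At least 1 Cdkn1a UMI was found in 1069 of 3187 cells of library 1 and 696 of 3001 of library 2, and 3 or more in 145 and 98. Free RNA in a droplet can give a single UMI, no cell type known to lack Cdkn1a was available here as a background, and a cell with 0 may hold uncaptured Cdkn1a RNA, so the classes are counts of UMIs and not expressing and silent cells. Cells with at least 1 Cdkn1a UMI were set against cells with 0 at matched depth, 1014 cells per class in library 1 and 657 in library 2. None of the 7 other members was called, beside 7.8% of 11100 genes tested in edgeR, and DESeq2 called none of them either; in edgeR 2 of the 7, Mdm2 and Cdkn2d, had an unadjusted p under 0.05. Mdm2 came nearest of the p53 targets, at 35.2 and 29.0 CPM without and 39.3 and 36.8 with a Cdkn1a UMI. Its log2 fold change of 0.27 (95% interval 0.04 to 0.50) had an unadjusted p of 0.0239 and an adjusted p of 0.186, with 0.18 and 0.38 from the libraries alone.

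Cdkn2d differed by -0.17 (-0.32 to -0.02; edgeR adjusted p = 0.184), from 113 and 138 CPM without to 112 and 103 with a Cdkn1a UMI, with 0.02 from library 1 alone and -0.39 from library 2 alone. Ccng1 differed by 0.02 (-0.21 to 0.24), Cdkn1b by -0.12 (-0.27 to 0.02), Cdkn2c by -0.17 (-0.35 to 0.01) and Cdkn1c by 0.11 (-0.31 to 0.53). Trp53inp1, with 12 UMIs in each library without and 20 and 19 with a Cdkn1a UMI, differed by 0.71 (-0.07 to 1.49). With 3 or more Cdkn1a UMIs against 0 no member was called either: Mdm2 differed by 0.57 (SE 0.25, edgeR adjusted p = 0.165), Cdkn2d by -0.45 (SE 0.19, 0.128) and Cdkn1b by -0.41 (SE 0.17, 0.119).

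Of 33 other p53 targets tested 6 were higher in cells with a Cdkn1a UMI and 1 was lower. Plk3 (log2 0.67), a kinase of the stress response, Slc19a2 (0.55), a thiamine transporter, and Sfn (0.53) led the former, and Bax (-0.27), which promotes cell death at mitochondria, was the latter. Their median was 0.07, beside 0.00 over all genes. Of the CDK inhibitor list Cdkn2b was higher (0.58) and Cdkn3 lower (-0.28). The same cells held more immediate early RNA in 11 of 13 genes tested and more interferon RNA in 5 of 8. They also held more conjunctival marker RNA in 6 of 7 genes (Muc4 by log2 3.04), and less of 14 of 21 G2/M genes. Of 7 heat shock genes 4 were higher, of 7 corneal markers 3 were higher, and 3 of 3 immune markers were lower. Of 9 limbal markers 2 were higher and 4 lower, Gpha2 among the latter. The part of these in the p53 target differences was not tested. Without the library block 0 of 11100 genes were called, and without TMM 59.0% rather than 69.6% of called genes were higher.

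**Figure D5:**
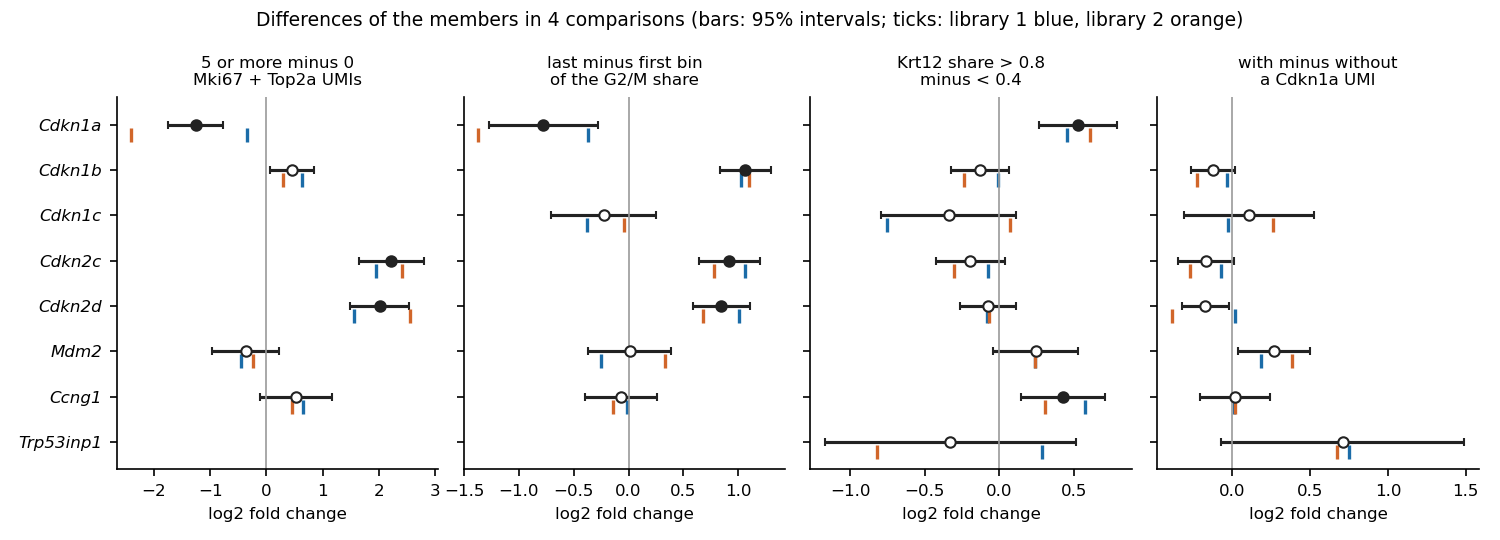
Log2 fold change (horizontal axis) of each member (vertical axis) in the 4 comparisons, with 95% intervals; filled circles passed an edgeR adjusted p of 0.05, and ticks give library 1 (blue) and library 2 (orange) alone. Cdkn2c and Cdkn2d are filled and right of 0 in the first pair of panels, and Cdkn1a is filled left of 0 there and right of 0 along the Krt12 share.

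Likeness to other genes was described over 18 sums of UMIs, from 2 libraries, 3 Krt12 classes and 3 proliferation classes, after removing each library's mean from log2 values, among 5761 genes of at least 20 CPM on average. The sums share their libraries and differ in depth, the smallest holding 6 cells, so the correlations are descriptions. They were also split by Mki67 and Top2a UMIs, along which Cdkn2c, Cdkn2d and 21 of 21 G2/M genes were higher. The likeness of Cdkn2c and Cdkn2d to mitotic genes is therefore not a separate result. Cdkn2d was most like Kif23 (Pearson r = 0.966), Zw10 (0.959) and Nek2 (0.954), all mitotic genes. Cdkn2c was most like Knstrn (0.945) and Arhgap11a (0.939), which are also mitotic genes, and Nup205 (0.932), of the nuclear pore. Cdkn1a was most like Ndufa4 (0.807), Stat3 (0.780) and Muc15 (0.760), a respiratory chain gene, a cytokine signalling factor and a membrane mucin. Cdkn1b was most like Wnk1 (0.916), Cntrl (0.853) and Papola (0.828), and Mdm2 was like Skap2 (0.868) and Nucb1 (0.847). Ccng1 was most like Mrps25 (0.981), Ganab (0.980) and Cyb5r3 (0.980).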

How the data were processed

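The matrix held the deposited UMI counts, whole numbers per gene and cell, from 10x 3′ libraries, per the labels' protocols. Cell Ranger 3.1.0, Seurat 5.0.0 and GRCm38/mm10 are named in the submitters' processing notes; for annotation release, cell calling and depth equalisation nothing was given in the sources used here. The suffix of a barcode gave its library, and its link to a labelled replicate number is not given. A UMI is counted once per molecule, so levels were not divided by gene length.

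Sums of UMIs for each class of each library were compared in edgeR 4.0.16 (R 4.3.3; quasi-likelihood, robust, TMM, filterByExpr) across all genes, with Benjamini-Hochberg adjustment at 0.05. Library was a block because both classes of a library come from 1 sample. Genes that choose the classes were left out of the test. Depth was matched in 20 bins of total UMIs within each library. Coordinates are GENCODE M21 (GRCm38). Doublets were not removed; leaving out the 3% of cells with most UMIs was an alternative. The cells with a Cdkn1a UMI were planned at 3 or more if 100 cells per library had them; library 2 had 98, so 1 or more was used. All members are reported; of each other list at most 3 genes per direction that passed with the same sign in both libraries are named by log2 fold change, and for each member at 20 CPM the 3 most alike genes, of which 1 is not reported here. The members and lists were chosen with earlier results of these data known. The fits were tested on simulated data. Alternatives were DESeq2 1.42.0, other filters, depth and class limits, no block, and each library alone.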

Additional observations from a re-analysis of the deposited data

How the results depend on the processing

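Library as a replicate block decided several calls. Without the block, members higher along the Krt12 share went from 2 to 0, members lower with proliferation RNA from 1 to 0, and members lower in the last G2/M bin from 1 to 0; DESeq2 gave the same 3 counts of 0. The count along the Krt12 share was also 1 after thinning to 1900 UMIs per cell, where Ccng1 lost its call, and 0 with 3 depth-matched classes. The lower count in the last G2/M bin was also 0 above a Krt12 share of 0.8 and without TMM. The higher counts with proliferation RNA and in the last G2/M bin, from Cdkn2c, Cdkn2d and, in the latter, Cdkn1b, kept within 1.5 times under all alternatives run. Genes called overall fell from 3622 to 1551 along the Krt12 share, from 1429 to 701 with proliferation RNA, from 2535 to 792 in the last G2/M bin and from 866 to 0 with a Cdkn1a UMI when the block was dropped. Over all alternatives these counts ran from 1551 to 3858, 333 to 1959, 576 to 3077 and 0 to 866, and the interaction count from 0 to 12.

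Signs turned only for members that had not passed. Along the Krt12 share with 3 depth-matched classes, Cdkn1b gave 0.027, Cdkn1c 0.19, Cdkn2c 0.043 and Cdkn2d 0.086. With proliferation RNA, Ccng1 gave -0.054 after thinning, and Cdkn1b above a share of 0.8 gave -0.021 in a second draw. For the interaction, Mdm2 gave -0.75 without the 3% of cells with most UMIs, -0.29 without cells with an immune UMI and -0.021 with no filter, and Cdkn2d 0.33 after thinning and 0.016 without cells with an immune UMI. In the last G2/M bin, Mdm2 gave -0.080 at a mitochondrial limit of 10%, -0.14 after thinning and -0.17 above a share of 0.8; Ccng1 gave 0.094 without the 3%, 0.11 above 0.8, 0.036 with 3 bins and 0.025 without TMM; Cdkn1c gave 0.14 after thinning. With a Cdkn1a UMI, Cdkn1c gave -0.068 without the 3%, -0.10 at 3 or more UMIs, -0.0049 with proliferation RNA only, -0.055 without cells with an immune UMI and -0.11 in a second draw, and Ccng1 gave -0.029 after thinning and -0.014 without TMM. The cause was not tested.

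Each library alone gives a value with no test. The values ran from -0.76 to 0.072 for Cdkn1c and -0.82 to 0.29 for Trp53inp1 along the Krt12 share, and from -0.25 to 0.34 for Mdm2 in the last G2/M bin. For the interaction they ran from -0.090 to 0.60 for Cdkn1a, -0.17 to 0.74 for Cdkn2d and -0.12 to 0.55 for Mdm2. With a Cdkn1a UMI they ran from -0.028 to 0.26 for Cdkn1c and -0.39 to 0.017 for Cdkn2d, and with proliferation RNA under 0.4 from -0.44 to 0.24 for Ccng1.

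Thinning moved the level of Cdkn1a in library 2 to 59.7 CPM, Cdkn1b in library 1 to 159, Cdkn2c in library 2 to 86.3, Cdkn2d in library 2 to 133, Mdm2 in library 1 to 33.0, Ccng1 in library 1 to 34.1 and Trp53inp1 in library 2 to 2.15. Too few UMIs left Cdkn1c and Trp53inp1 untested with proliferation RNA, and Trp53inp1 untested in the last G2/M bin.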
